A study of Mus musculus with 4 samples.

Results

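The genes described here are the core of the oxygen-sensing pathway that acts through the hypoxia-inducible factors (HIFs), together with HIF targets outside glycolysis, grouped around *Bnip3*. A fixed list of 36 gene symbols defined the group, and 34 of them were among the 12693 symbols measured. *P4ha2* and *Stc2* had no value. The list was chosen by known role around *Bnip3*, and *Bnip3* was selected on its difference between these same *Foxq1* cKO and wild-type libraries. The differences of its genes between the groups are therefore given as a description with no test.

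The data were RNA-seq of 2 wild-type and 2 *Foxq1* cKO samples from mouse embryos of the C57BL/6 strain at embryonic day 18 (E18). By the methods of the study, endothelial cells (ECs) were sorted with an antibody to CD31 from the cerebral cortex, whereas the labels name whole brain as the tissue. The study names Smart-seq2, a method for small inputs, whereas the labels give 2 ug of total RNA. These sources thus do not settle which material was sequenced, and levels of cell type markers are given further below. The study asked how loss of the forkhead transcription factor FOXQ1 alters gene expression in brain ECs. In the cKO mice a floxed *Foxq1* gene was cut by Cre under the Tie2 promoter. Controls, labelled WT, were littermates that carried no Cre. Tie2 drives Cre in endothelium and also in blood-forming cells, so the loss of *Foxq1* need not be limited to ECs. How many embryos went into a sample was not given in the sources used here. Nothing says that the samples were separate animals, so p-values measure the spread between samples only, which may be technical. The wild-type libraries held 21466436 and 17901203 reads, and the knockout libraries 15827166 and 16963866. Pairs of values are given in this order, replicate 1 before replicate 2 and wild-type before knockout. Levels are given as normalized counts, which are reads divided by 1 size factor per sample.

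HIFs are pairs of an oxygen-labile alpha subunit and a stable beta subunit. When oxygen is plentiful, prolyl hydroxylases mark the alpha subunit, the VHL protein binds the mark, and the subunit is degraded. When oxygen is scarce, the pair accumulates and turns on genes of glycolysis, mitochondrial turnover, collagen modification and vessel growth. Endothelium carries 2 main alpha subunits, HIF-1α and HIF-2α, the product of *Epas1*. BNIP3 is a protein of the outer mitochondrial membrane that recruits autophagosomes to mitochondria, and its gene is a classical HIF target.

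*Foxq1* itself was measured at 353 and 297 normalized counts in wild-type cells against 5.44 and 32.6 in cKO cells. Both knockout samples lay far below both wild-type samples, in the direction that the labels give. The log2 fold change was -4.47 (standard error 1.04), with a limma adjusted p of 0.857 and an unadjusted p of 0.00507. DESeq2 on the recovered reads gave an adjusted p of 0.00854. An opposite-strand gene, *A530084C06Rik*, covers 3200 bases of the *Foxq1* exon, and it had no value of its own in the table.

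One library stood apart. Across 12472 genes, wild-type 1 correlated with the other 3 libraries at a Pearson r of 0.847, 0.842 and 0.859, on log2 values. The other 3 libraries correlated with one another at 0.878, 0.904 and 0.896. Wild-type 1 was also the library in which the listed genes most often peaked, with 16 of the 34 highest there (47.1%, against 30.4% of all genes tested). In *Foxq1* cKO 2, 4 were highest (11.8%, against 21.3%). For many genes the result is therefore also given without wild-type 1, in fits in which the lone remaining wild-type sample was assumed to vary like the knockout samples.

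*Bnip3* (minus strand, chr7:138890836-138909519 in GRCm38) stood at 1781 and 1462 normalized counts in wild-type cells, and at 643 and 717 in *Foxq1* cKO cells. Neither knockout sample reached the wild-type range, and the gap between the groups was wider than the gap within either. The mean was 1621 ± 226 (SD, n = 2) against 680.3 ± 52.2 (SD, n = 2), so that 42.0% of the wild-type level was measured in the knockout. This is a log2 fold change of -1.25 (standard error 0.283), and -1.10 without wild-type 1. In bulk samples, fewer cells of a type and less RNA per cell cannot be told apart. As a description on other scales, per 1000 normalized counts of 11 endothelial marker genes *Bnip3* stood at 7.02 and 6.24 in wild-type and at 2.98 and 3.14 in knockout libraries. Its ratio to *Bnip3l*, which encodes the related mitophagy receptor NIX, was 0.220 and 0.222 against 0.0933 and 0.116. Both ratios carry the difference by which *Bnip3* was selected and add no separate evidence. The study also reported lower *Bnip3* mRNA by quantitative PCR in cultured *Foxq1* cKO brain ECs, a measurement that was not re-analysed here.

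Part of the *Bnip3* transcript is not unique. Of its stretches of 50 bases, 47.2% also occur in transcripts of 6 other annotated genes, which include the antisense gene *Gm45507* (504 shared exonic bases) and the copies *AC160336.1*, *Gm16439* and *Gm6532*. None of these 4 had a value in the table. Libraries by Smart-seq2 in its usual form do not keep strand, and whether strand was used in counting was not given in the sources used here. If strand was not kept or not used, reads from the bases that *Bnip3* shares with its antisense partner cannot be told apart.

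Both knockout values lay below both wild-type values for 7 of the 34 listed genes, and above for 3, while 24 overlapped. Among all 12472 genes tested, 18% did not overlap in the lower direction and 18% in the higher. The median log2 fold change of the listed genes was -0.11, against 0.01 for all genes tested. Estimates were below 0 for 21 genes and above 0 for 13, or 61.8% below, against 49.3% of all genes tested. Without wild-type 1 the median was -0.04, with 20 genes below 0 and 14 above. The estimates ran from -1.25 for *Bnip3* to 0.80 for *Kdm4c*. In 18 of the 34 genes the SD within groups, on log2 values, exceeded the difference between groups, as it did in 6864 of the 12472 genes tested.

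**Figure D1:**
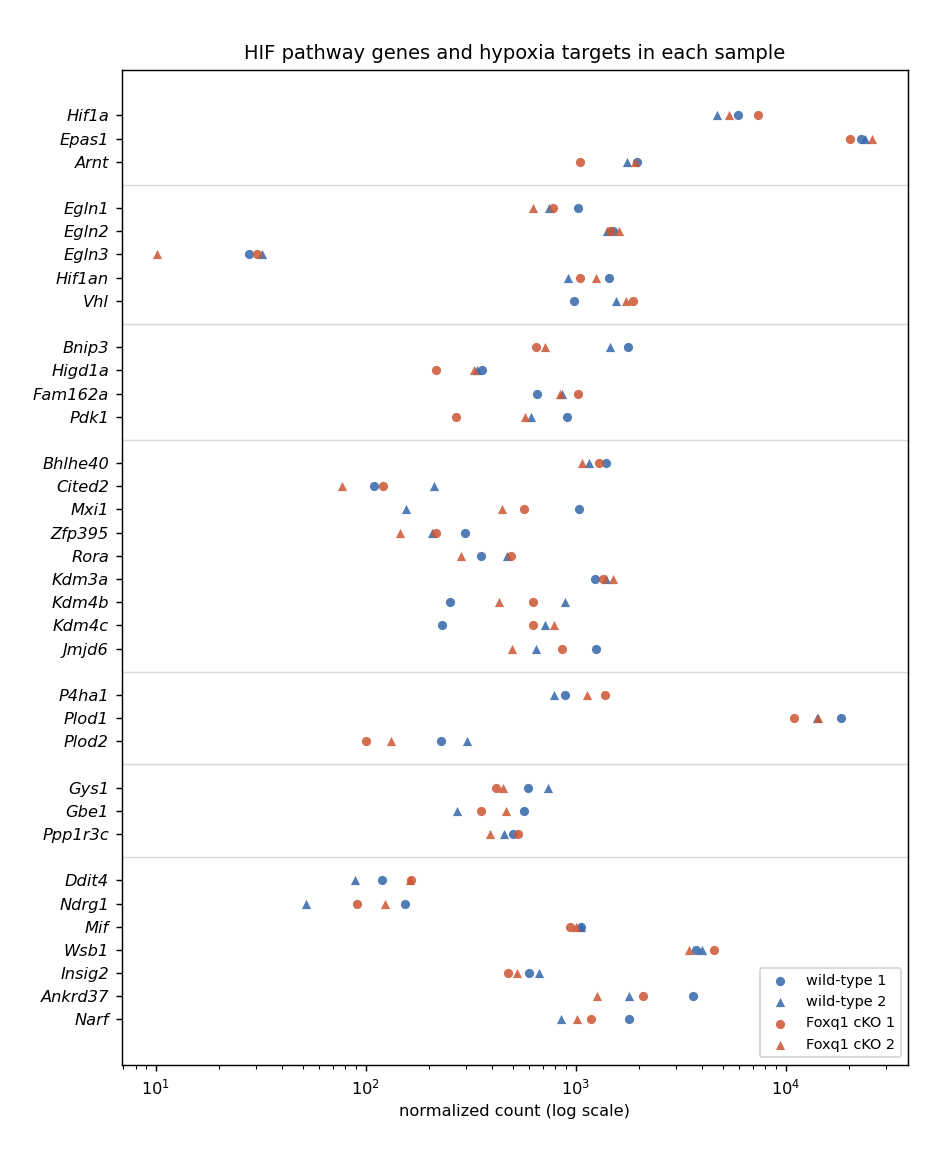
Normalized counts (log scale) of the 34 listed genes in each of the 4 samples, with wild-type in blue, *Foxq1* cKO in red, replicate 1 as circles and replicate 2 as triangles. Grey lines separate the roles of the genes, and *Bnip3* has both red symbols (643 and 717) left of both blue symbols (1462 and 1781).

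The results follow the pathway from the HIF subunits to the targets. *Hif1a*, which encodes HIF-1α, had 5957 and 4707 normalized counts in wild-type cells and 7347 and 5381 in cKO cells. The groups overlapped, because *Foxq1* cKO 2 lay between the wild-type samples. *Epas1* had 22781 and 23769 against 20218.5 and 25811.5. Here the knockout samples were the lowest and the highest of the 4, with both wild-type samples between them. *Arnt*, the gene of the shared beta subunit HIF-1β, had 1955 and 1761 against 1045 and 1907. Its value was low in *Foxq1* cKO 1 alone. Log2 fold changes were 0.25 for *Hif1a*, -0.03 for *Epas1* and -0.39 for *Arnt*, with standard errors of 0.217, 0.144 and 0.337. Quantile normalization gave 0.05 for *Epas1*, so that its sign is not settled, and without *Foxq1* cKO 1 *Arnt* was at 0.04. With 1 sample left out, *Hif1a* ran from 0.02 (without *Foxq1* cKO 1) to 0.47 (without *Foxq1* cKO 2) and *Epas1* from -0.20 to 0.15.

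On a scale of normalized counts per kilobase of exon, *Epas1* had the highest wild-type mean of the 34 genes, 4164, and *Hif1a* ranked 6th with 904.3. *Arnt* stood at 232 on the same scale. *Epas1* was thus above *Hif1a* per length in each of the 4 samples, with 4075, 4252, 3617 and 4617 against 1010, 798.3, 1246 and 912.7, wild-type libraries first.

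The next genes sense oxygen or remove HIF. *Egln1* encodes PHD2, the main HIF prolyl hydroxylase, and had 1028 and 742 normalized counts against 781 and 627. *Foxq1* cKO 1 lay between the wild-type samples, so the groups overlapped. *Egln2*, the PHD1 gene, had 1507 and 1404 against 1461 and 1614. It had the smallest standard error of this set (0.236) and also overlapped. *Egln3*, the PHD3 gene and itself a HIF target, had 27.8 and 31.9 against 30.5 and 10.2. These values rest on 33, 32, 28 and 10 reads, and *Foxq1* cKO 2 alone was low. *Hif1an* encodes FIH, the asparaginyl hydroxylase that blocks the HIF transactivation domain, and had 1438 and 914 against 1047 and 1244. Both knockout values lay between the wild-type values. *Vhl*, the gene of the ubiquitin ligase subunit that recognises hydroxylated HIF, had 985 and 1557 against 1867 and 1741. Both knockout samples were above both wild-type samples, and the knockout mean was 141.9% of the wild-type mean.

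Log2 fold changes in this set were -0.32 for *Egln1*, 0.08 for *Egln2*, -0.72 for *Egln3*, -0.01 for *Hif1an* and 0.54 for *Vhl*. The standard error of *Egln3* was 1.04 and that of *Vhl* was 0.300. Without *Foxq1* cKO 2 the estimate of *Egln3* was 0.03. Without wild-type 1 the estimate of *Egln1* was -0.08, that of *Vhl* was 0.21, and that of *Hif1an* was 0.32, with the opposite sign. Leaving out *Foxq1* cKO 1 also turned the sign of *Hif1an*, to 0.12, as did quantile normalization, to 0.02. Per kilobase of exon, *Egln2* had the highest wild-type mean of the 3 prolyl hydroxylase genes (519.8), followed by *Egln1* (246.2) and *Egln3* (11.2). *Egln3* was the lowest of all 34 listed genes on that scale.

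Among the other targets that act at mitochondria, *Pdk1* had the lowest estimate. PDK1 is a kinase that switches off pyruvate dehydrogenase and so keeps pyruvate out of the citric acid cycle. *Pdk1* had 913 and 612 normalized counts in wild-type cells against 268 and 571 in cKO cells. The groups did not overlap, but *Foxq1* cKO 2 was close to wild-type 2, and the low value was that of *Foxq1* cKO 1. The knockout mean was 55% of that in wild-type cells, a log2 fold change of -0.93 (standard error 0.507). Leaving out *Foxq1* cKO 1 gave -0.39, and leaving out wild-type 1 gave -0.65. *Higd1a*, whose product binds respiratory chain complexes, had 357 and 338 against 217 and 328. Both knockout values were lower, and that of *Foxq1* cKO 2 was just under wild-type 2. The log2 fold change of *Higd1a* was -0.38, or -0.08 without *Foxq1* cKO 1, and 24.4% of its 50-base stretches are shared with other genes. *Fam162a*, a gene for a mitochondrial protein linked to hypoxic cell death, overlapped between the groups with an estimate of 0.31, and from 0.12 to 0.51 with 1 sample left out.

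Collagen hydroxylases need oxygen and are HIF targets that prepare collagen for secretion and crosslinking. Of these, 3 were measured. *Plod2*, a lysyl hydroxylase gene, had 228 and 304 normalized counts against 100.2 and 132. The groups were separate, with the knockout at 43.7% of the wild-type mean. Its log2 fold change was -1.19 (standard error 0.621), and -1.39 without wild-type 1. *P4ha1* encodes the catalytic subunit of collagen prolyl 4-hydroxylase and had 893 and 791 against 1378 and 1125. Here both knockout samples were above both wild-type samples, with 148.7% of the wild-type mean and a log2 fold change of 0.57 (standard error 0.287). Without wild-type 1 it was 0.65. *Plod1*, a further lysyl hydroxylase gene and second of the 34 in counts per kilobase (2388), overlapped with an estimate of -0.36, which ran from -0.55 to -0.17 with 1 sample left out.

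The next genes make or regulate glycogen. *Gys1*, the glycogen synthase gene of tissues other than liver, had 589.8 and 741 normalized counts against 417 and 453. Both were lower than either wild-type value, at 65.4% of the mean. On the log2 scale the difference was -0.60 (standard error 0.379), and -0.77 without wild-type 1. A neighbour on the opposite strand, *Ruvbl2*, shares 310 exonic bases with *Gys1*. The branching enzyme gene *Gbe1* (0.05) and *Ppp1r3c* (-0.07), which encodes a subunit that brings a phosphatase to glycogen, overlapped between the groups. *Gbe1* changed sign in DESeq2 and edgeR, where its estimate was -0.03, and ran from -0.48 to 0.58 with 1 sample left out. *Ppp1r3c* was at 0.15 without *Foxq1* cKO 2.

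All 9 targets that act in transcription or chromatin overlapped between the groups, with estimates from -0.65 to 0.80 and a median of -0.11. Those below 0 were *Cited2*, a competitor of HIF for its coactivators (-0.65), *Zfp395* (-0.48), *Jmjd6* (-0.46), the nuclear receptor gene *Rora* (-0.12) and the repressor gene *Bhlhe40* (-0.11). Those above 0 were the histone demethylase genes *Kdm3a* (0.11), *Kdm4b* (0.13) and *Kdm4c* (0.80), and *Mxi1*, an antagonist of MYC (0.32). Leaving out 1 sample turned the sign of *Jmjd6* (0.01 without wild-type 1) and *Bhlhe40* (0.03 without wild-type 1 or *Foxq1* cKO 2). The sign of *Rora* turned too (0.09 without wild-type 2, 0.27 without *Foxq1* cKO 2). For *Kdm4b* it turned as well (-0.78 without wild-type 1, -0.14 without *Foxq1* cKO 1). In these fits *Cited2* ran from -1.13 to -0.18, *Zfp395* from -0.76 to -0.19 and *Kdm3a* from 0.02 to 0.20. The median standard error, 0.60, was the highest of the 7 sets of listed genes. *Mxi1* had 1031 and 156 normalized counts in wild-type 1 and wild-type 2, with the knockout samples at 564 and 445 between them. *Kdm4b* had 252 and 891, and again both knockout values, 627 and 430, lay between, with an estimate of -0.11 in DESeq2 and edgeR. *Kdm4c* had 230 and 712 against 627 and 790. Its positive estimate came with the low value in wild-type 1, and without that sample the estimate was -0.02. For *Mxi1* the estimate was 1.68 without wild-type 1 and -1.04 without wild-type 2, and DESeq2 and edgeR on all 4 samples gave -0.23.

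The remaining targets act in signalling, stress and lipid control. *Ddit4* encodes REDD1, an inhibitor of mTORC1, and had 119 and 88.7 normalized counts against 164 and 163. Both cKO values were higher, at 157.6% of the mean in wild-type cells, from 141, 89, 151 and 160 reads. The log2 fold change was 0.67 with a standard error of 0.671, and 0.88 without wild-type 1. *Insig2*, which holds back sterol synthesis (-0.34), and the cytokine gene *Mif* (-0.13) did not overlap in the lower direction. For *Mif* the values were 1063 and 1061 against 936 and 1004, and 50.9% of its 50-base stretches are shared with other genes. *Ndrg1* (0.23), the ubiquitin ligase gene *Wsb1* (0.04) and *Narf* (-0.17) overlapped. With 1 sample left out, *Ndrg1* ran from -0.54 to 1.01, *Wsb1* from -0.16 to 0.24 and *Narf* from -0.71 to 0.36, so none of these kept its sign. *Ankrd37* had 3615 and 1788 against 2079 and 1263, and its estimate of -0.65 became -0.14 without wild-type 1. Per kilobase of exon it ranked 3rd of the 34 genes, with a wild-type mean of 1755. Of its 50-base stretches, 17% are shared with other genes. Among these is *Lrp2bp*, an opposite-strand neighbour with 349 shared exonic bases and no value of its own.

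**Figure D2:**
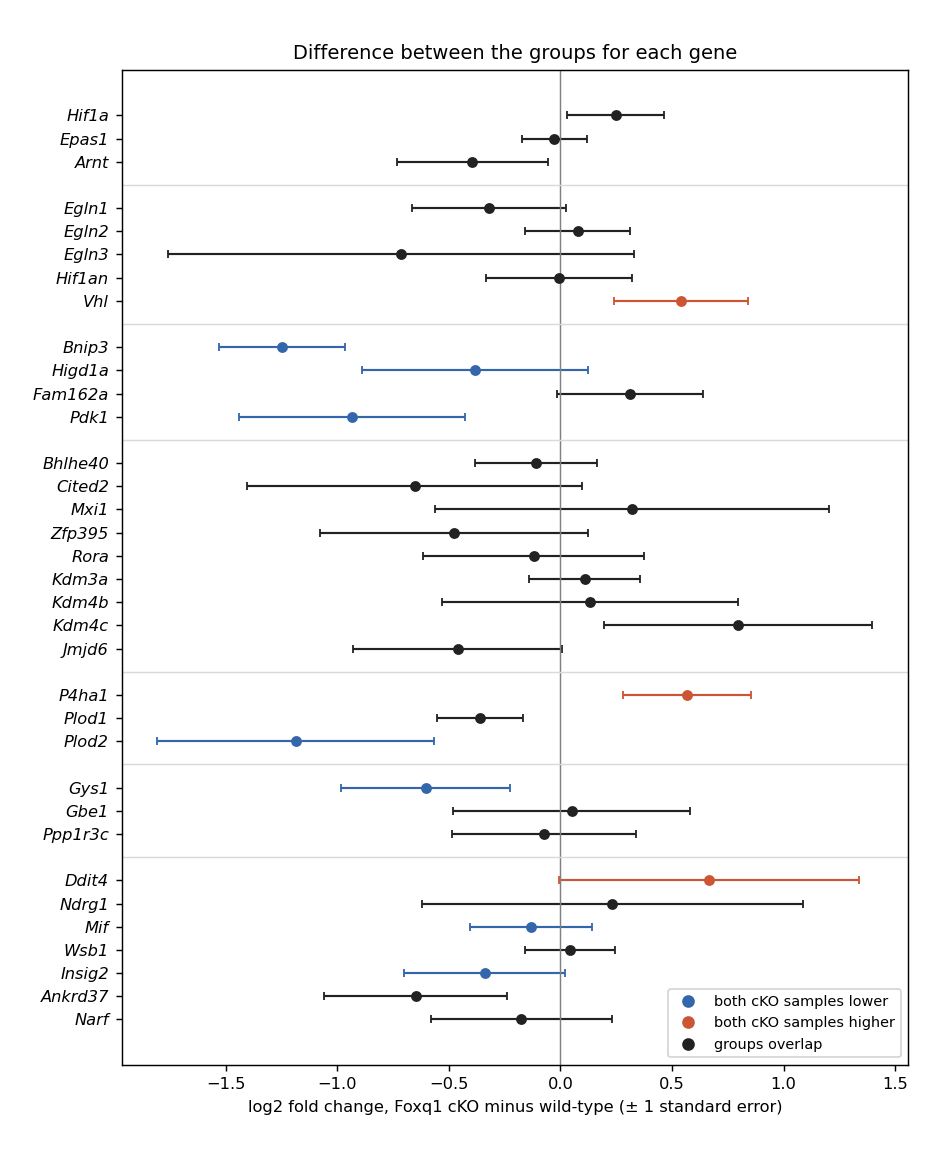
Log2 fold change (*Foxq1* cKO minus wild-type) of the 34 listed genes with 1 standard error to each side, in the same order, coloured by whether both knockout values lay below (7 genes), above (3 genes) or overlapping (24 genes) the wild-type values. *Bnip3* (-1.25) and *Plod2* (-1.19) lie farthest to the left and *Kdm4c* (0.80) farthest to the right.

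The DNA in front of these genes was read to see what they share in sequence. HIF pairs bind the letters ACGTG or GCGTG, and both were searched for on both strands in RefSeq windows of 300 bases, from 250 before to 50 after a gene's start (GRCm38.p6). Windows were found for 30 of the 36 listed genes, 40 windows in all. *Epas1*, *Plod2*, *Bhlhe40*, *Ndrg1*, *Zfp395* and *Kdm4b* were without one. ACGTG was in 20 of the 40 windows (50%), in 19.6% of all 32851 windows and in 25.2% of the 12040 windows of genes measured here. GCGTG was in 23 (57.5%), against 32.4% of all windows and 49.9% of those of measured genes. At least 1 of the pair was in 29 (72.5%), against 43.8% and 61.5%. The study considers the letters GTTTC for FOXQ1, and these were searched for too. They were in 14 (35%), against 45% of all windows and 41.3% of those of measured genes. A match says that the letters are present, not that a factor binds. The list was made of HIF pathway genes and known HIF targets, so its share of HIF letters is not independent of that choice. The 40 windows include those of *P4ha2* and *Stc2*, which had no value, and 7 listed genes had more than 1 window.

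Windows of 4 genes are shown, chosen after the values were seen: *Bnip3* and *Pdk1*, with lower knockout values, *P4ha1*, with higher ones, and *Ankrd37*, which overlapped. Each is written along its gene's own strand, with the letters of each match, on either strand, in capitals. The *Bnip3* window, chr7:138909457-138909756 on the minus strand, held ACGTG on either strand of the palindrome CACGTG, with first bases at -108 and -107 from the gene's start, and GCGTG 3 times, at -117, -99 and -35. GTTTC was not among its letters. The study named GTTTC from sites near *Adck1* and *Hap1*. By CUT&Tag, a chromatin profiling method, it reported FOXQ1 signal at the *Bnip3* promoter together with H3K4me3, a mark of active promoters. The first of the 2 *Pdk1* windows, chr2:71872974-71873273 on the plus strand, held GCGTG at -78 and -2 and GTTTC at -171. The *P4ha1* window, chr10:59323046-59323345 on the plus strand, held ACGTG at -16 and GCGTG at -163 and -126. The *Ankrd37* window, chr8:45999801-46000100 on the minus strand, held ACGTG at -241 and -6 and GCGTG at -155 and -152, the last 2 overlapping. These 4 do not stand for the whole list. Of the 30 listed genes with a window, 26 held at least 1 of the HIF letters, and *Gys1* (lower), *Vhl* (higher), *Hif1an* and *Gbe1* (both overlapping) held neither.
Bnip3: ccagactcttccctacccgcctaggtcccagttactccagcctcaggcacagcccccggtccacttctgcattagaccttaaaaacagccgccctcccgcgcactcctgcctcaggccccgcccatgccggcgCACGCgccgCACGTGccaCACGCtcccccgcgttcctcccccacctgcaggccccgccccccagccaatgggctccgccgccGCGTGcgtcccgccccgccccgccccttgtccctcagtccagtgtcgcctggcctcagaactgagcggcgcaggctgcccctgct
Pdk1: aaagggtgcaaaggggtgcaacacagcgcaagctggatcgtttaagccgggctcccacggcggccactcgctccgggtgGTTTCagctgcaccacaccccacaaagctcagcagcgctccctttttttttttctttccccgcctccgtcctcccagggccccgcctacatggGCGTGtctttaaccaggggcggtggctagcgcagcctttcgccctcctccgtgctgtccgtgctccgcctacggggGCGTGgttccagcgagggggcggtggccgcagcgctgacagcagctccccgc
P4ha1: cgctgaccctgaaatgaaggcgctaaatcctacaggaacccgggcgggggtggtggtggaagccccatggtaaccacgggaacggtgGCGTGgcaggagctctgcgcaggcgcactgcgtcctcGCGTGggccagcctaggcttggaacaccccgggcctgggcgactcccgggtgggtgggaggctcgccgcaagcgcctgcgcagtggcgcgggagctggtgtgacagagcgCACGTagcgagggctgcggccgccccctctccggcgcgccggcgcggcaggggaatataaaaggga
Ankrd37: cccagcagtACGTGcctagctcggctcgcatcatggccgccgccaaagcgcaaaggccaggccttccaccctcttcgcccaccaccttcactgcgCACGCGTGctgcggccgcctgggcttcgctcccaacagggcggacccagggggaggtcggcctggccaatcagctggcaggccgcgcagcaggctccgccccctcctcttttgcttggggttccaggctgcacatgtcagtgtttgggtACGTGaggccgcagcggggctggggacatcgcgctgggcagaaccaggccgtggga

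Other genes of the pathway were taken as lists by known role and compared with limma over all genes tested. These lists, too, were chosen with earlier results of these data known. Their p-values are therefore a description and not independent tests. After adjustment over 12472 genes none had an adjusted p under 0.05 in limma, where 651 genes (5.22%) had an unadjusted p under 0.05, with 3.05% lower and 2.17% higher. The smallest limma adjusted p was 0.857, and the genes named below at an unadjusted p under 0.05 had this value. DESeq2 on the recovered reads gave 59 genes with an adjusted p under 0.05, and edgeR gave 0.

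HIF cofactors and turnover factors numbered 17 of 18 listed (*Siah2* had no value), with a median log2 fold change of 0.01. Lower at an unadjusted p under 0.05 were 3, and 0 were higher. *Hif3a*, an alpha subunit gene whose products can restrain the others, had 2749 and 926 normalized counts against 709 and 386. Its knockout values were the lower pair, but the high value was that of wild-type 1. The log2 fold change was -1.61 (limma unadjusted p 0.0336), and -0.82 without wild-type 1, with an unadjusted p of 0.156. *Ncoa1*, a coactivator gene, had 809 and 1043 against 574 and 296 (-1.15, unadjusted p 0.0422). *Rwdd3* encodes RSUME, an enhancer of sumoylation, and had 38.8 and 119.6 against 5.44 and 3.05 (-3.76, unadjusted p 0.0138). Its counts come from 46, 120, 5 and 3 reads, so the size of the difference is poorly fixed. In these genes both knockout samples were below both wild-type samples. Without *Foxq1* cKO 2 the unadjusted p was 0.175 for *Hif3a*, 0.208 for *Ncoa1* and 0.0708 for *Rwdd3*, and without wild-type 2 it was 0.13 for *Ncoa1* and 0.0803 for *Rwdd3*.

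Vascular and secreted targets numbered 17 of 22 listed, and *Vegfa*, *Epo*, *Car9*, *Car12* and *Lox* had no value. Their median was -0.04, or -0.22 without wild-type 1, with 4 lower and 0 higher at an unadjusted p under 0.05. *Edn1*, the gene of the vasoconstrictor endothelin-1, had 2585 and 1383 normalized counts against 528 and 362. Both knockout values were below both wild-type values, with a log2 fold change of -2.11 (standard error 0.415) and an unadjusted p of 0.00218. Without wild-type 1 it was -1.66, with an unadjusted p of 0.00935, and DESeq2 gave an adjusted p of 0.000187. *Hmox1*, the heme oxygenase gene, had 2258 and 1792 against 721 and 1019 (-1.23, unadjusted p 0.00598). *Angpt2*, a destabilising ligand of the Tie2 receptor, had 1823 and 1086 against 544 and 701 (-1.19, unadjusted p 0.0179). *Flt1*, the VEGF receptor 1 gene, had 15578 and 10849 against 9582 and 9017 (-0.48, unadjusted p 0.0463). Both knockout samples were the lower pair for each of these genes. Without wild-type 1 the unadjusted p was 0.0271 for *Hmox1*, 0.0903 for *Angpt2* and 0.239 for *Flt1*. Without *Foxq1* cKO 1 it was 0.0957 for *Angpt2* and 0.11 for *Flt1*, and without *Foxq1* cKO 2 it was 0.166 for *Flt1*.

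Glycolytic targets numbered 16 of 18 listed, without *Hk2* and *Pfkfb4*. Of these, 14 had estimates below 0 (87.5%, against 49.3% of all genes tested), with a median of -0.26, or -0.15 without wild-type 1. Both knockout values were below both wild-type values for 10 and above for 1, against 18% of all genes tested each way. Median standard errors were 0.206 for these targets and 0.496 for all genes tested, so the sets differ in precision. The study measured higher glycolytic activity in cultured *Foxq1* cKO brain ECs, which is not a measure of RNA. Of the 16 targets, 1 was lower and 1 higher at an unadjusted p under 0.05 in limma. *Ldha*, the lactate dehydrogenase A gene, had 20325 and 14131 normalized counts against 10661 and 10755 (-0.66, unadjusted p 0.0125). *Pfkp*, the platelet-type phosphofructokinase gene, had 3790 and 1945 against 5055 and 4721 (0.85, unadjusted p 0.0392). In both genes the groups did not overlap, and in both the wild-type samples differed more from each other than the knockout samples did. Without wild-type 1 the estimates were -0.40 for *Ldha* and 1.33 for *Pfkp*. Without *Foxq1* cKO 1 or *Foxq1* cKO 2 the unadjusted p of *Ldha* was 0.0576 or 0.0556. That of *Pfkp* was 0.147 or 0.114 without them, and 0.13 without wild-type 2.

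Mitophagy receptors and partners of BNIP3 included 17 measured genes. The median was -0.01, and 0 had an unadjusted p under 0.05 in limma. The estimates of *Nlrx1* and *Pink1* were farthest from 0. *Nlrx1*, a mitochondrial receptor gene, had 194 reads in wild-type 1, 1 in wild-type 2, 195 in *Foxq1* cKO 1 and 111 in *Foxq1* cKO 2. The estimate of 3.10 rested on the low value of wild-type 2, and was -0.08 without that sample. DESeq2 and edgeR on all 4 samples gave 0.98. *Pink1*, the gene of the kinase that marks damaged mitochondria, had 1617 and 816.5 against 931 and 412 (-0.89, and -0.40 without wild-type 1) and overlapped. *Bnip3l* had 8108 and 6569 against 6893 and 6169 and also overlapped, with an estimate of -0.16 (standard error 0.168).

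**Figure D3:**
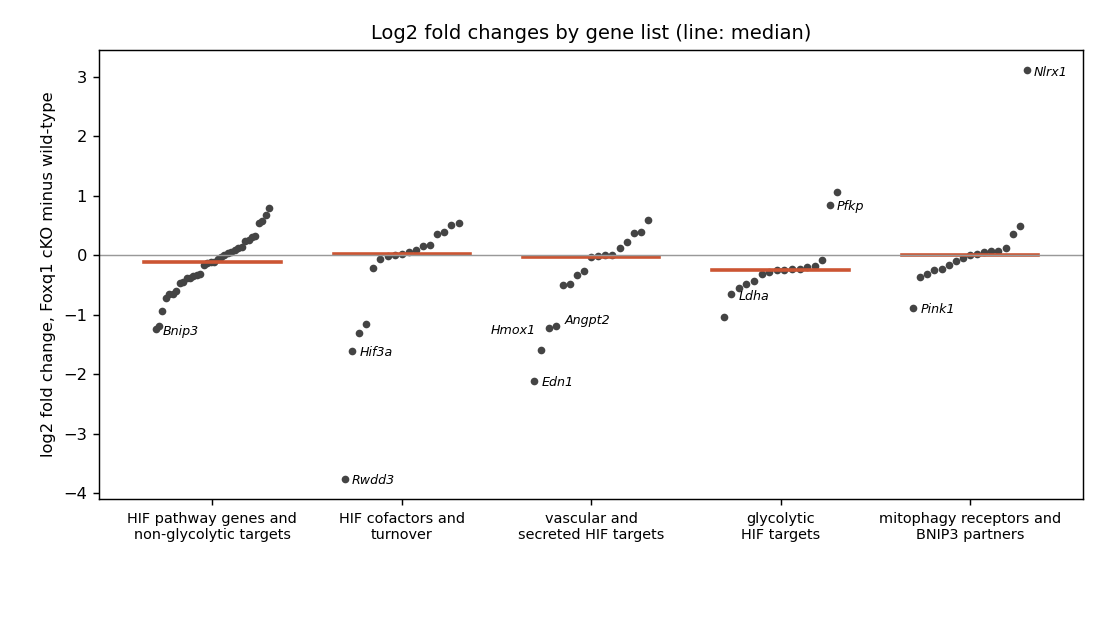
Log2 fold change (*Foxq1* cKO minus wild-type) of each gene in the HIF gene group and in the 4 other pathway lists, 1 point per gene in rising order, with the median as a red line. Medians lie between -0.26 (glycolytic targets) and 0.01 (cofactors), and single genes such as *Rwdd3* (-3.76) and *Nlrx1* (3.10 in limma, 0.98 in DESeq2) lie far from their lists.

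The cell types in the libraries were read from marker genes. All 11 endothelial markers had values, and their summed normalized counts were 253899 and 234287 in wild-type against 215847 and 228193 in *Foxq1* cKO libraries. Both knockout sums were the lower, in the same direction as *Bnip3*, at 0.91 times the wild-type sums. Of these 11 genes, 8 had estimates below 0 (72.7%, against 49.3% of all genes tested). Both knockout values were below both wild-type values for 5 and above for 1 (*Cdh5*), against 18% of all genes tested each way. *Cldn5*, a tight junction gene and the most abundant of these markers, ranked 4th of all genes, with 151977 and 136639 against 126706 and 134826. Pericyte and smooth muscle markers were also high, which a CD31 sort alone would not enrich. Of 10 listed, 8 had values, with sums of 155361 and 153361 against 160522 and 146111. Their most abundant gene was *Rgs5*, at 91163 and 89164 against 93044 and 89248, while the smooth muscle genes *Acta2* and *Tagln* had no value. Level in a bulk library therefore cannot be assigned to ECs alone.

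Markers of microglia and macrophages, and of radial glia and astrocytes, also had lower sums in both knockout samples, but single genes went both ways. All 11 microglial genes had values, summing to 9897.5 and 12566.5 against 7582.5 and 8412.9. The most abundant was *Csf1r*, with 3365 and 2579 against 1732 and 1587 (-0.83, limma unadjusted p 0.0109). Without wild-type 1 this p was 0.0562, and without *Foxq1* cKO 2 it was 0.0643. Estimates were below 0 for 6 microglial genes and above 0 for 5, such as *C1qc*, with 141 and 35.9 against 224 and 172 (1.45). All 9 glial genes had values, summing to 22070 and 21058.5 against 18131.5 and 17111. *Slc1a3* was the most abundant, with 6810.1 and 7350.5 against 5957 and 5359, and *Gfap* had 3073 and 2420 against 1081 and 1329 (-1.19, limma unadjusted p 0.0031). DESeq2 gave *Gfap* an adjusted p of 0.0162. Of the 8 glial genes tested, 5 were below 0 and 3 above, among them *Aqp4*, with 1550 and 1678 against 1845 and 1695 (0.13). Erythroid markers (7 of 11) summed to 20859 and 15769.7 against 16022 and 20515.5, led by *Hba-a1*. Neuronal markers (8 of 11) were led by *Map2*, oligodendrocyte markers (2 of 6) by *Olig1* and fibroblast markers (2 of 4) by *Col1a2*. Their knockout sums were 0.857, 1.01 and 0.904 times the wild-type sums, in that order. By mean level *Map2* ranked 2393rd of all genes, whereas the endothelial *Cldn5* ranked 4th and the pericyte gene *Rgs5* 8th. Neuronal sums were 6109.9 and 5712.5 in wild-type against 4203.3 and 5927.7 in knockout libraries. For oligodendrocytes they were 2475.6 and 1988.9 against 1322.7 and 3182.1, and for fibroblasts 2375.4 and 4594.9 against 4159.7 and 2139.3. The part of these cell types in the differences of *Bnip3* and the other genes was not tested.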

How the data were processed

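Per the labels and the methods of the study, RNA from 2 wild-type and 2 *Foxq1* cKO samples was sequenced on an Illumina platform. The authors deposited 1 table of signal per gene, read counts divided by 1 size factor per sample. The submitters' processing notes list TopHat2 2.0.12, Bowtie2 2.2.3, HTSeq 0.6.0 and the build mm9. The normalization tool, annotation and low-count filter were not given in the sources used here. The 1207361 lines of the table repeat each gene with the same values and were reduced to 12693 symbols. No gene had fewer than 1 read in a sample or 21 in all, so complete losses could not be measured. Of the values, 100% were whole multiples of a step per sample (within 0.01 of a step), and reads were recovered on that basis.

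Because the unit was a normalized signal, R 4.3.3 and limma 3.58.1, with moderation that follows the mean level, were run on values to which 1 was added before taking log2. The 12472 genes with a mean of at least 10 were fitted, with Benjamini-Hochberg adjustment over all of them. All 34 measured genes of the HIF group passed that filter. Adding 1 makes differences of low genes smaller than adding 0.1 does, as for *Foxq1* (-4.47 against -4.59). Against DESeq2, limma estimates were larger in size for *Foxq1* (-4.47 against -4.09) and *Nlrx1* (3.10 against 0.98). For *Rwdd3* the limma estimate was smaller in size (-3.76 against -4.22). Groups came from the labels. On the recovered reads, DESeq2 1.42.0 called 824 genes at an unadjusted p under 0.05 and 59 at an adjusted p under 0.05, and edgeR 4.0.16 (quasi-likelihood test) called 632 and 0. Other alternatives were pseudocounts of 0.1 and 5, no filter, a filter at a mean of 50, TMM or quantile scaling, moderation that ignores the mean level (eBayes without trend), the replicate number as a block, and each sample left out in turn. With 2 samples against 2, an exact two-sided permutation test cannot give a p below 0.333, so none was used. The scripts were tested on simulated data. Precision is limited by 2 samples a group, with a median standard error of 0.496 on the log2 scale over all genes and 0.392 over the HIF group.

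Members and lists were chosen with earlier results of these data known. *Foxq1* and each listed gene were named. Values in every sample were given for *Bnip3*, the HIF subunits, the sensors and *Vhl*, and for other listed genes with an absolute log2 fold change of at least 1, or of at least 0.5 where the groups did not overlap. Pathway genes were named at an unadjusted p under 0.05, or else the 2 farthest from 0 with a mean of at least 50. Sample values of *Higd1a*, *Mxi1*, *Kdm4b*, *Kdm4c*, *Mif*, *Ankrd37*, *Bnip3l* and marker genes fall outside this rule and were added after they were seen. Exon lengths, overlaps and shared sequence were taken from GENCODE M21 (GRCm38), in which 12685 of 12701 identifiers were found, and promoter windows from RefSeq (GRCm38.p6). Neither is the build in the notes, so both served for annotation only. Figures were drawn in Python 3.11.15 (matplotlib 3.10.9), and sequences were searched with pandas 2.3.3.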

Additional observations from a re-analysis of the deposited data

How the results depend on the processing

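In the alternatives that kept all 4 samples, between 592 and 824 genes had an unadjusted p under 0.05. DESeq2 gave 59 genes at an adjusted p under 0.05 and the other alternatives, like limma, gave 0, and the cause was not tested. The replicate numbers were not shown to pair the samples (correlation of replicate differences across genes 0.0325), and the block on them gave 693 genes at an unadjusted p under 0.05. *Bnip3* stayed between -1.25 and -1.23 in these alternatives. Of 329 estimates of the other listed genes, 8 changed sign, in *Epas1*, *Hif1an*, *Mxi1*, *Kdm4b* and *Gbe1*. With 1 sample left out, *Bnip3* ranged from -1.39 to -1.10, and the median of the listed genes from -0.30 to -0.0366. Listed genes below without overlap numbered from 10 without wild-type 1 (29.4%, against 34.5% of all genes tested) to 19 without wild-type 2 (55.9%, against 37.7%). Genes at an unadjusted p under 0.05 ranged from 276 (without *Foxq1* cKO 1) to 1569 (without wild-type 2), and 0 passed adjustment. In those fits 22 of 132 estimates changed sign, in 15 listed genes.

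Leaving out each sample, *Foxq1*, *Edn1*, *Hmox1* and *Gfap* kept an unadjusted p under 0.05, up to 0.017, 0.0182, 0.0418 and 0.026. For the other genes named at that level, the samples that mattered stand beside each gene. Without a trend in eBayes, *Hif3a* (0.089), *Ncoa1* (0.0692), *Flt1* (0.222), *Pfkp* (0.133), *Ldha* (0.12) and *Csf1r* (0.0575) also passed above 0.05, as did *Flt1* under quantile normalization (0.0914) and *Ncoa1* (0.0547) and *Pfkp* (0.0526) in edgeR. *Pink1* came under it with the block (0.0372) and without wild-type 2 (0.0419), and *Nlrx1* without wild-type 1 (0.00127). Low reads limit *Egln3*, *Rwdd3* and *Nlrx1*.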
